A study of Mus musculus with 4 samples.

Results

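The Ms4a genes described here are Ms4a1, Ms4a3, Ms4a4b, Ms4a4c, Ms4a6b, Ms4a6c, Ms4a6d and Ms4a7, 8 of the 19 Ms4a genes among the 32285 genes of each count matrix. They were measured in bone marrow (BM) and spleen of mice carrying MA9 leukaemia cells. Raw unique molecular identifiers (UMIs), each standing for a captured transcript, were summed for each gene over the cells of each marker-gated cell type in each of the 4 libraries. The family was selected on the ratio of Ms4a3 between the knockdown and control leukaemia cells of the BM, the largest of its members there, so the Ms4a3 values in those cells are a description and no test. The 8 genes together held 370631 UMIs, from 105513 for Ms4a4b to 654 for Ms4a7.

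MS4A proteins are small proteins that span the cell membrane several times, with both ends inside the cell. The family is known for members restricted to single blood lineages: MS4A1 is CD20 of B cells, MS4A2 is a chain of the high-affinity IgE receptor of basophils and mast cells, and Ms4a3 is used to trace cells that pass through the granulocyte-monocyte progenitor. The mouse Ms4a4 and Ms4a6 groups arose by local duplication, and their members are known from T cells, B cells and myeloid cells.

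The groups were 2 BM libraries, named BM-Ctrl and BM-shPrmt9, and 2 spleen libraries, named Spleen-Ctrl and Spleen-shPrmt9, each the only library of its group. The recipients were C57BL/6J mice, 6 to 8 weeks old, which kept their own blood cells. They had been transplanted with acute myeloid leukaemia cells driven by the MLL-AF9 fusion (MA9) that carried a doxycycline-inducible hairpin, either a control hairpin (Ctrl) or one against Prmt9, which encodes an arginine methyltransferase. All the mice drank doxycycline for 7 days, so the host cells of both arms had met the drug, and the hairpin was in the MA9 cells only. The comparison asks how silencing Prmt9 in leukaemia cells alters those cells and the immune cells around them. With 1 library per group no test between groups was possible, the differences have no replicate check, and every interval below is a 95% interval for counting error only.

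The 4 libraries held 8648 to 11315 barcodes and 84009744 to 188030429 UMIs, and 34857 cells were used. Between 15 and 35 barcodes were shared by any pair of libraries. Levels are given in CPM, a gene's UMIs divided by all UMIs of the same gated cells and multiplied by 1000000. Cells gated on Hoxa9, Hoxa10, Hoxa7, Hoxa5, Meis1 and Pbx3 are called Hoxa-gated rather than MA9 cells, since progenitor genes such as Elane and Prtn3 stood beside Hoxa9 among their leading genes in the BM. In the spleen none of the gate's own markers was among the 10 leading genes. Elane and Prtn3 were among them in Spleen-Ctrl, and the stefin genes Stfa1 and Stfa3 led in Spleen-shPrmt9. They numbered 1379 in BM-Ctrl, 1677 in BM-shPrmt9, 26 in Spleen-Ctrl and 87 in Spleen-shPrmt9. Prmt9 itself was at 11.2 CPM in the Hoxa-gated cells of BM-Ctrl and 6.24 CPM in those of BM-shPrmt9, and at 16.6 CPM (20 UMIs) and 5.49 CPM (14 UMIs) in spleen. The BM libraries also differed in Xist, which is transcribed in female cells. Xist was at 0 UMIs in basophils and erythroid cells of BM-Ctrl and at 1.66 CPM in its monocytes, against 1168, 352 and 641 CPM in the same gates of BM-shPrmt9. T cells carried it in both BM libraries, at 294 and 592 CPM, and Hoxa-gated cells hardly did, at 0.121 and 18.1 CPM. In B cells Xist was at 36.5 and 966 CPM, in immature neutrophils at 0.194 and 131 CPM and in mature neutrophils at 0.0901 and 105 CPM. Progenitor-gated cells had 0 UMIs of it in BM-Ctrl and 503 CPM in BM-shPrmt9. Ddx3y, from the Y chromosome, was at 0 UMIs in each of these gates in both BM libraries and at 87.9 and 93.2 CPM in spleen T cells. The BM-Ctrl basophil, erythroid and progenitor gates thus carried neither transcript, and its monocytes hardly any Xist, while BM-Ctrl macrophages were at 22.0 CPM (7 UMIs). The part of this difference in the results below was not tested.

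The 8 genes lie within 391 kb of chromosome 19 (GENCODE M21, GRCm38). From low to high coordinates they are Ms4a1 at chr19:11249675-11266241 (minus strand), Ms4a7 at chr19:11321039-11336146 (minus), Ms4a4c at chr19:11404770-11427246 (plus), Ms4a4b at chr19:11443553-11467055 (plus), Ms4a6c at chr19:11469366-11482192 (plus), Ms4a6b at chr19:11516512-11531256 (plus), Ms4a6d at chr19:11586604-11604849 (minus) and Ms4a3 at chr19:11629496-11640851 (minus). Ms4a4b and Ms4a6c are separated by 2.31 kb, the narrowest gap, and Ms4a7 and Ms4a4c by 68.6 kb, the widest. Libraries of this kind read the 3′ end of transcripts. Among stretches of 31 bases in the last 500 bases of the transcripts, 20.8% of those of Ms4a4c also occur in another Ms4a gene, most of them in Ms4a4b. The share was 4.4% for Ms4a4b, 12.9% for Ms4a6c, 11.4% for Ms4a6b and 0 for Ms4a1, Ms4a3, Ms4a6d and Ms4a7. Counts within the pairs Ms4a4b and Ms4a4c, and Ms4a6b and Ms4a6c, are therefore uncertain where reads fall on shared bases.

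The promoters of 6 members were found in the RefSeq table (GRCm38.p6), and those of the genes the results turn on are shown, 250 bases before the start, 5′ to 3′ on the gene's strand. Ms4a3 is shown as the gene that chose the family, at chr19:11640852-11641101 (minus strand), outside any annotated gene. Ms4a4c at chr19:11407411-11407660 (plus) and Ms4a4b at chr19:11443308-11443557 (plus) are shown because the ratios of these neighbours lay on opposite sides of 1 in spleen T cells, as described below. The Ms4a4c window lies in an intron of that gene in GENCODE, and the last 5 bases of the Ms4a4b window are exonic there. Capitals mark the longest run the 2 windows share, 20 bases. Ms4a6c at chr19:11469118-11469367 (plus) is shown for the run of 48 bases in capitals that it shares with the RefSeq promoter window of Ms4a6b. In GENCODE 2 bases of the Ms4a6c window are exonic. The Ms4a6b window, which is not shown, lies wholly within that gene there, with 106 of its 250 bases exonic.
Ms4a3: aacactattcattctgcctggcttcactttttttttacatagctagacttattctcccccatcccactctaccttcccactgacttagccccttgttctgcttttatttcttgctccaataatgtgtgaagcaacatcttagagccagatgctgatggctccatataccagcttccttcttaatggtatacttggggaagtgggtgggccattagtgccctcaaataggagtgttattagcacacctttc
Ms4a4c: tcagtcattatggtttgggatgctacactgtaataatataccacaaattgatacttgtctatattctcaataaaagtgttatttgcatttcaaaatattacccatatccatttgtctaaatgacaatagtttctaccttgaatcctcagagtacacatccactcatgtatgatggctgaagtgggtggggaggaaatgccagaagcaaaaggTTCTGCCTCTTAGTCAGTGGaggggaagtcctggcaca
Ms4a4b: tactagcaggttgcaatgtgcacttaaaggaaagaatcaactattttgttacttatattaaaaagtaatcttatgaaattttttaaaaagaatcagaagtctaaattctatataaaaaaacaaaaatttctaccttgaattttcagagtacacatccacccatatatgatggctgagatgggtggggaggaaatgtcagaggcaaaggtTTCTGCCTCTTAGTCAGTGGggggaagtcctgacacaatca
Ms4a6c: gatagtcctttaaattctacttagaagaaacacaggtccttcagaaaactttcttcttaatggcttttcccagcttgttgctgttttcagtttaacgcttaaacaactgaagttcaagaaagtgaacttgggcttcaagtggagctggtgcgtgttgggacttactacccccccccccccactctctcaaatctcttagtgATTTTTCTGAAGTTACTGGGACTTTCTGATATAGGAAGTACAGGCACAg

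Aligned over their whole length, the Ms4a4c and Ms4a4b windows had 192 identical bases in 271 columns, 70.8%, and the shared run ended 19 and 22 bases before the start. The Ms4a6c and Ms4a6b windows had 47.4% identity, and their long run ended 2 bases before the start of Ms4a6c and 71 bases before that of Ms4a6b. On either strand, GAGGAA occurred in the Ms4a4c and Ms4a4b windows, 61 and 64 bases before the start, and in 23.3% of all 32851 promoters in the table. A pair of GAAA words 2 bases apart, TTGCNNAA and CCCNNGGG were in none of the members' windows and in 2.98%, 9.56% and 11.8% of all promoters. These matches describe the letters of the windows only.

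**Figure D1:**
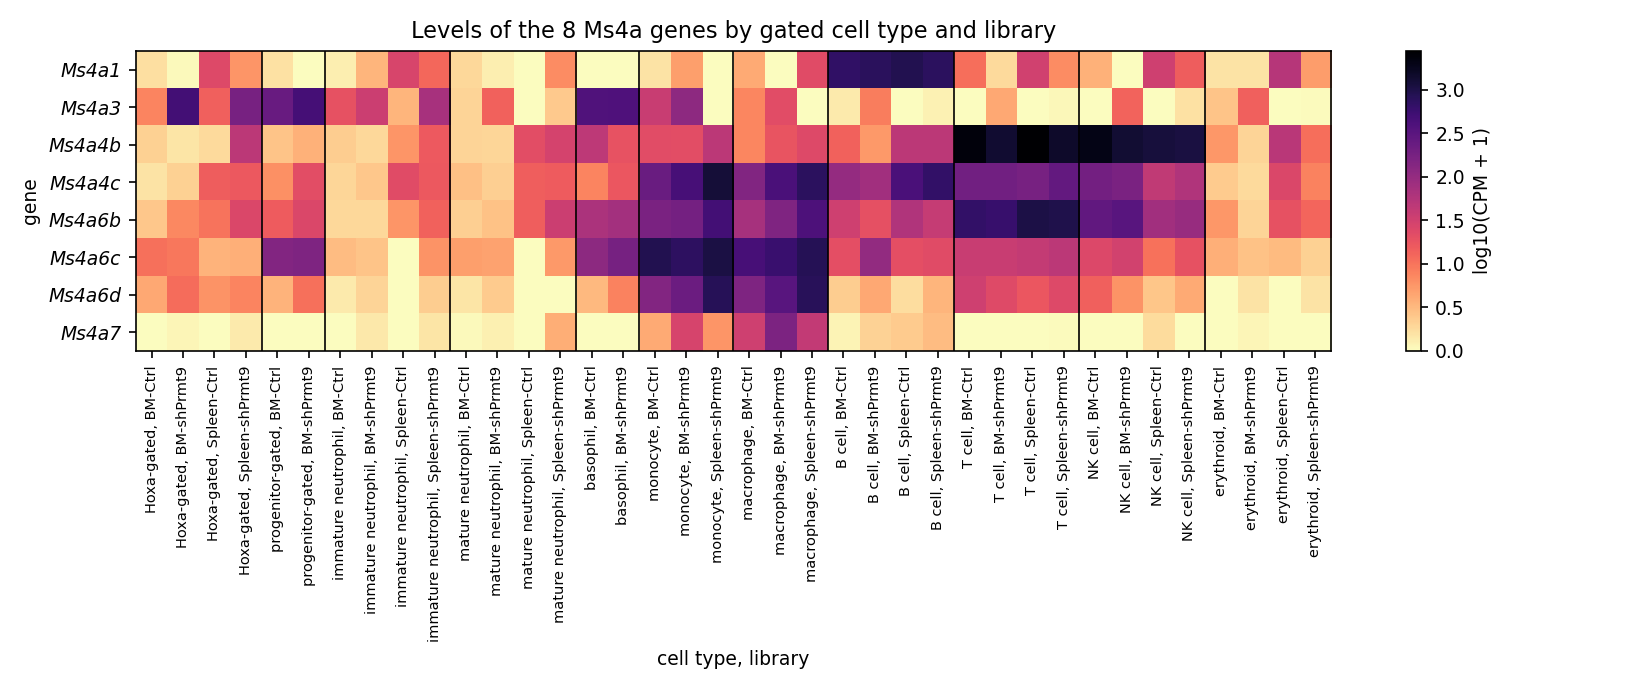
Level of each of the 8 genes (rows) in each gated cell type and library (columns), as the log10 of CPM plus 1, from UMIs summed over the cells. Darker is higher. Ms4a1 is darkest in B cells, Ms4a4b and Ms4a6b in T cells, Ms4a6c in monocytes, and Ms4a3 in basophils, progenitor-gated cells and the Hoxa-gated cells of BM-shPrmt9.

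Each gene was restricted to a few cell types, and this order mostly held across libraries. Ms4a1 was highest in B cells in all 4 libraries. Ms4a4b was highest in T cells, at 1331 to 2787 CPM, with NK cells next at 1069 to 2028 CPM. Ms4a6b was also highest in T cells, at 595 to 1021 CPM. Ms4a6c was highest in monocytes, at 724 to 1062 CPM. Ms4a6d and Ms4a7 were highest in monocytes or macrophages. Ms4a4c was the most widely spread, with its highest level among the gates compared in monocytes in both BM libraries and in Spleen-shPrmt9 and in B cells in Spleen-Ctrl. The conventional dendritic cell gate, which was not compared, stood at 273 CPM (122 UMIs) in BM-Ctrl, against 228 CPM in monocytes. Ms4a3 was highest in basophils in BM-Ctrl and level between Hoxa-gated and progenitor-gated cells in BM-shPrmt9, where their intervals overlap. In the smallest gates, spleen monocytes (16 and 20 cells) and spleen macrophages (18 and 50 cells), levels rest on few UMIs, and no ratio is given.

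In the Hoxa-gated cells of the BM, Ms4a3 was at 6.69 CPM in BM-Ctrl (554 UMIs, interval 6.14 to 7.27) and at 477 CPM in BM-shPrmt9 (44609 UMIs, interval 473 to 482), a ratio of 71.4 (interval 65.6 to 77.8). This placed it 22nd from the highest ratio among 13989 genes. In the spleen it was at 13.2 CPM in Spleen-Ctrl (16 UMIs, interval 7.57 to 21.5), while Spleen-shPrmt9 had 174 CPM (443 UMIs, interval 158 to 191), a ratio of 13.1 (interval 7.98 to 23.1). As a mean over single cells the BM ratio was 44.4. A single cell held 68.8% of the Spleen-Ctrl UMIs, and leaving out the top cell on either side gave a spleen ratio of 38.0. The control level was low in both tissues and the knockdown level high in both.

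The difference ran through most cells of the gate rather than a few. In BM-Ctrl, 90.4% of Hoxa-gated cells had no Ms4a3 UMI and 11 cells held 50% of all UMIs. In BM-shPrmt9, 4.35% had none, 322 cells held 50%, and the levels of single cells ran from 60.4 CPM at the 10th percentile through a median of 389 CPM to 848 CPM at the 90th. In spleen, 88.5% of Spleen-Ctrl cells and 40.2% of Spleen-shPrmt9 cells had none, and the median of the latter was 67.0 CPM. With each cell thinned to 3000 UMIs, the share with an Ms4a3 UMI was 1.67% (interval 1.06% to 2.49%) in BM-Ctrl and 61.9% (interval 59.5% to 64.2%) in BM-shPrmt9, and unthinned it was 9.57% and 95.6%. Thinning left out 0 and 2 shallower cells. Erythroid cells, which should lack the gene, gave thinned shares of 0.652% (interval 0.135% to 1.89%) and 4.19% (interval 2.86% to 5.89%), with 168 and 416 shallower cells left out. The intervals of the Hoxa-gated and erythroid shares overlap in BM-Ctrl and lie far apart in BM-shPrmt9. Median depth was 58394 and 52041 UMIs in the Hoxa-gated cells and 5563 and 4748.5 UMIs in the erythroid cells.

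**Figure D2:**
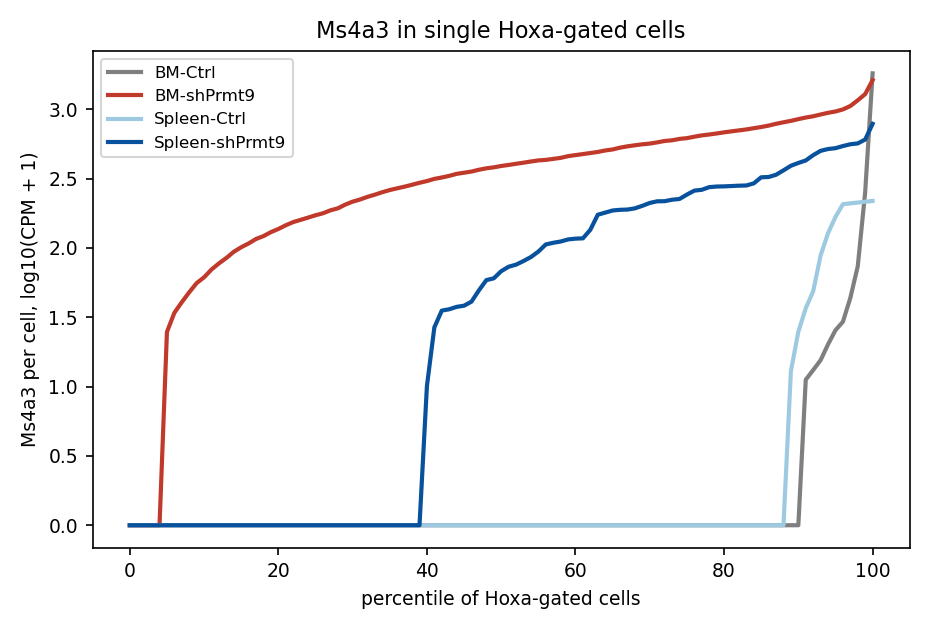
Ms4a3 level of single cells (CPM) at percentiles of the Hoxa-gated cells, by library. The BM-shPrmt9 curve leaves 0 below the 10th percentile and passes 389 CPM at the median, the Spleen-shPrmt9 curve leaves 0 after 40.2% of its cells, and both Ctrl curves stay at 0 until close to the 90th percentile.

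Ms4a3 was higher in BM-shPrmt9 at every level of the genes that define the gate. Split into tertiles by the summed Hoxa, Meis1 and Pbx3 level, BM cells with the lowest level were at 9.52 CPM in BM-Ctrl and 434 CPM in BM-shPrmt9, a ratio of 45.6. The middle tertile gave 4.85 and 500 CPM (ratio 103) and the highest 2.51 and 482 CPM (ratio 192). The ratio was thus larger where the control level was lower, while the knockdown level stayed within 434 to 500 CPM. Split by Elane, the neutrophil elastase gene, the ratio was 84.9 in the lowest tertile, 92.4 in the middle and 29.6 in the highest, where BM-Ctrl reached 18.8 CPM and BM-shPrmt9 557 CPM. Without the cells that carried an Xist UMI, 13.2% of the BM-shPrmt9 gate, the levels were 6.73 and 479 CPM. The 221 cells with an Xist UMI were at 471 CPM.

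Other genes listed for the granulocyte-monocyte progenitor showed no shift in a common direction. The 12 listed genes included the granule proteases and Cebpa, and also Nkg7, which served as a marker of the NK cell gate. Of the 12, 1 was at least 2-fold higher and 1 at least 2-fold lower in BM-shPrmt9. Of all 13989 genes 12.2% were at least 2-fold higher there and 6.86% at least 2-fold lower. The counting intervals of 6 of the 12 lay above 1 and those of 6 below 1. Their median log2 ratio was 0.02 and that of all genes 0.03. Elane went from 2247 to 4380 CPM (ratio 1.95), Prtn3 and Ctsg, which encode further granule proteases, had ratios of 0.913 and 0.980, and Mpo, encoding myeloperoxidase, had 0.496. Fcnb, encoding a ficolin, was the single one at least 2-fold higher, with 2.51. In spleen 0 of the 10 with enough UMIs (at least 20 over both libraries) were at least 2-fold higher and 4 were at least 2-fold lower, against 10.9% and 15.3% of 8413 genes.

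Outside the Hoxa-gated cells Ms4a3 was high in basophils and progenitor-gated cells of the BM. In basophils it was at 373 CPM in BM-Ctrl (92 cells) and 393 CPM in BM-shPrmt9 (127 cells). The ratio was 1.05 (interval 0.924 to 1.20), so no difference beyond counting error was seen. Progenitor-gated cells were those of the combined Hoxa and progenitor lineage that fell short of the Hoxa rule, and they may hold some Hoxa markers. In them Ms4a3 was at 239 and 474 CPM, a ratio of 1.98 (interval 1.83 to 2.14). The median depth of those cells differed widely, 28498 UMIs in BM-Ctrl and 2976.5 in BM-shPrmt9, and its part in the ratio was not tested. At least 2-fold higher were 4.99% of all genes in that gate and 5.22% in basophils. Cells passing the conventional dendritic cell markers, whose leading genes differed between the BM libraries, were at 2.24 CPM in BM-Ctrl (1 UMI in 29 cells) and 245 CPM in BM-shPrmt9 (247 UMIs in 28 cells).

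The level was lower in the later myeloid stages of both BM libraries. Immature neutrophils were at 18.2 and 33.7 CPM (ratio 1.85, interval 1.58 to 2.18) and mature neutrophils at 0.991 and 12.7 CPM. Monocytes were at 36.0 and 112 CPM (ratio 3.11, interval 2.71 to 3.57). BM-shPrmt9 erythroid cells were at 13.2 CPM and BM-Ctrl ones at 1.63 CPM, close to the mature neutrophils of the same library, whose levels are read as background. That background was higher in BM-shPrmt9 and is not subtracted from the ratios above, so no difference in immature neutrophils of the BM is read from theirs. In spleen immature neutrophils the level was 2.37 CPM in Spleen-Ctrl (1 UMI in 21 cells) and 67.9 CPM in Spleen-shPrmt9 (264 UMIs in 207 cells), a ratio of 28.7 with an interval of 5.10 to 1137. B cells and T cells held between 0 and 7 Ms4a3 UMIs in any library.

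**Figure D3:**
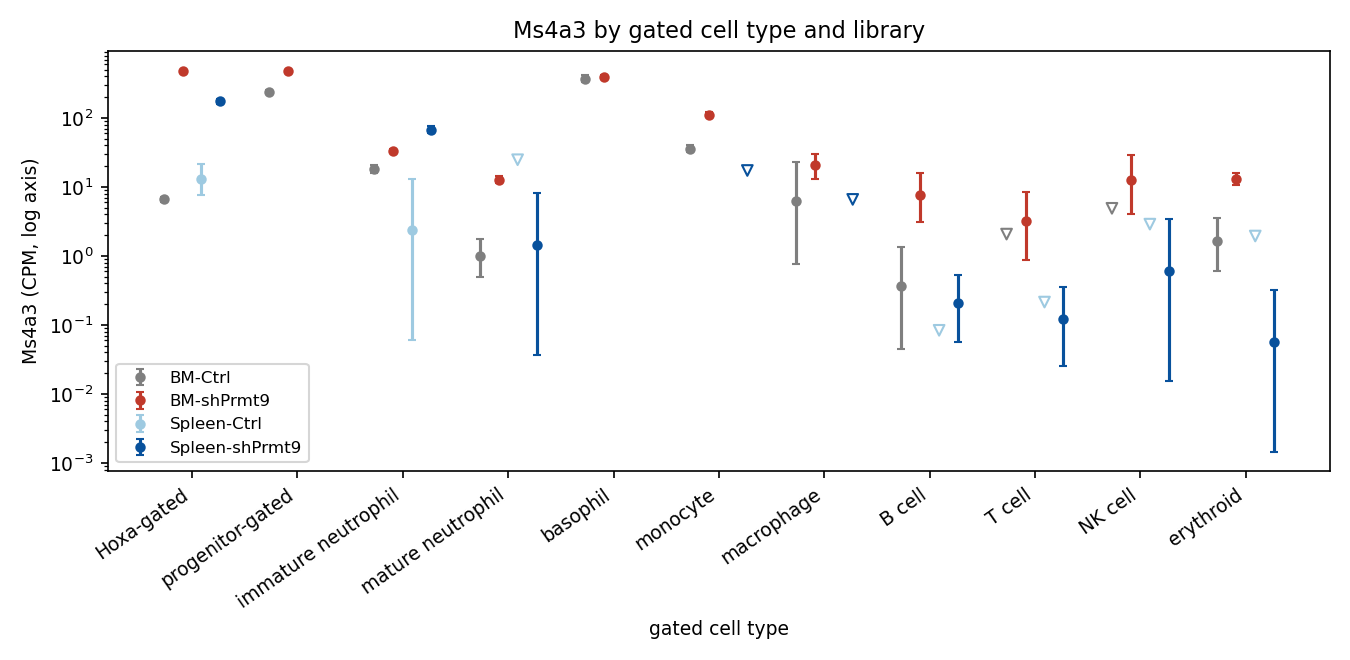
Ms4a3 level by gated cell type and library, in CPM on a log axis with 95% counting intervals. Open triangles mark the upper limit where no UMI was found. Hoxa-gated cells of BM-shPrmt9 (477 CPM) lie beside progenitor-gated cells and basophils of the same library, and those of BM-Ctrl (6.69 CPM) lie below monocytes and immature neutrophils of their own.

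The other members were low in Hoxa-gated cells. Of the 7 members with at least 20 UMIs in the BM pair, 4 were at least 2-fold higher in BM-shPrmt9 and 2 at least 2-fold lower, against 12.2% and 6.86% of all genes. The choice of the family bears on this count, and nothing is read from it. Ms4a6b was at 1.46 and 6.21 CPM (ratio 4.25, interval 3.49 to 5.21) and Ms4a6d at 3.20 and 10.4 CPM (ratio 3.26, interval 2.85 to 3.75). Ms4a4c, at 0.555 and 1.12 CPM, and Ms4a4b, at 1.15 and 0.524 CPM, were at levels close to or below those of erythroid cells, which were 1.36 and 0.849 CPM for Ms4a4c and 4.62 and 0.990 CPM for Ms4a4b. The BM-Ctrl erythroid value of Ms4a4b (17 UMIs) leans on its highest cell. Without the highest cells the erythroid ratio of Ms4a4b went from 0.214 to 3.12, so its BM-Ctrl level is not placed against background. Ms4a6b was at 4.62 and 0.990 CPM in erythroid cells as well, so its BM-Ctrl level lies within the background. Ms4a6c, a monocyte gene, was at 9.82 and 8.34 CPM (ratio 0.849, interval 0.769 to 0.938). For Ms4a6b and Ms4a6d most cells had no UMI in either library, 93.9% and 78.1% for Ms4a6b and 86.6% and 63.6% for Ms4a6d.

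Ms4a1, the CD20 gene, had summed levels within 1.5-fold of each other between hairpins in B cells. In BM B cells it was at 671 CPM in BM-Ctrl (1014 cells) and 778 CPM in BM-shPrmt9 (90 cells), a ratio of 1.16 (interval 1.07 to 1.26). Without precursors, gated on Vpreb1, Igll1, Dntt, Rag1 and Rag2, the levels were 712 and 985 CPM (ratio 1.38, interval 1.27 to 1.5), and the precursors themselves were at 72.6 and 44.9 CPM. In the spleen, 5387 B cells of Spleen-Ctrl were at 888 CPM and 1066 of Spleen-shPrmt9 at 735 CPM, a ratio of 0.828 (interval 0.812 to 0.844). Per cell, the spleen medians were 809 and 727 CPM. The BM medians were 428 and 238 CPM, lower in BM-shPrmt9 although the summed level was higher there. B cells without an Ms4a1 UMI made up 28.4% of the BM-Ctrl gate and 47.8% of the BM-shPrmt9 gate, where 13 cells held 50% of the UMIs. Plasma cells of the spleen were at 547 and 317 CPM (ratio 0.579, interval 0.539 to 0.622).

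In several gates outside the B lineage Ms4a1 was lower in Spleen-shPrmt9, which also held a smaller share of B cells. B cells made up 65.0% of Spleen-Ctrl and 14.2% of Spleen-shPrmt9. Over the same libraries Ms4a1 was at 30.7 and 5.67 CPM in T cells, 50.6 and 4.12 CPM in erythroid cells and 23.2 and 4.70 CPM in Hoxa-gated cells. These gates should lack the gene, and the values are read as background. In spleen erythroid cells 61.1% of all genes were at least 2-fold lower. In the BM, with B cells at 11.4% and 0.886%, Ms4a1 was lower in Hoxa-gated cells (0.652 and 0.0856 CPM). It was higher in immature neutrophils (0.290 and 2.36 CPM) and monocytes (0.552 and 3.93 CPM). The part of B cell transcripts in these values was not tested.

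Ms4a4b was lower in T cells of the knockdown libraries in both tissues. In the BM it was at 2370 CPM in BM-Ctrl (252 cells) and 1331 CPM in BM-shPrmt9 (154 cells), a ratio of 0.562 (interval 0.530 to 0.595). In the spleen, 1943 T cells of Spleen-Ctrl were at 2787 CPM and 2571 of Spleen-shPrmt9 at 1483 CPM, a ratio of 0.532 (interval 0.525 to 0.539). The whole distribution of spleen T cells was shifted, from a 10th percentile of 1277 CPM and a median of 2850 CPM to 286 and 1262 CPM. Thinned to 3000 UMIs, 99.1% of Spleen-Ctrl and 90.4% of Spleen-shPrmt9 T cells still had a UMI, and 94.7% and 84.8% in the BM, with 3 to 165 shallower cells of a library left out. Unthinned, the shares were 99.7% and 96.4% in the spleen and 94.0% and 89.6% in the BM, and erythroid cells gave thinned shares of 0.217% to 4.76%. Of the 6 members with enough UMIs in spleen T cells, 0 were at least 2-fold higher and 1 at least 2-fold lower, namely Ms4a1 at its background level, against 4.49% and 8.85% of all 12229 genes. In BM T cells the count was 0 in either direction among 5 members, against 4.48% and 3.35% of 8377 genes.

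The lower level was found in both T cell subsets. T cells with a Cd8a or Cd8b1 UMI and no Cd4 UMI were at 2407 and 1530 CPM in the BM (ratio 0.636, interval 0.594 to 0.680) and at 2801 and 1610 CPM in the spleen (ratio 0.575, interval 0.565 to 0.585). Those with Cd4 and no Cd8 UMI were at 2597 and 1318 CPM in the spleen (ratio 0.508, interval 0.492 to 0.524). NK cells were at 2028 and 1287 CPM in the BM (ratio 0.634, interval 0.573 to 0.701) and at 1170 and 1069 CPM in the spleen (ratio 0.914, interval 0.852 to 0.980). In spleen B cells, where the gene is low, it was at 45.7 and 45.9 CPM, a ratio of 1.0 (interval 0.927 to 1.09).

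Ms4a4c, the neighbour that shares promoter sequence with Ms4a4b, was higher in the knockdown library in T and B cells of the spleen. In spleen T cells it was at 173 CPM with the control hairpin and 262 CPM with shPrmt9, a ratio of 1.52 (interval 1.45 to 1.58). The ratio was 1.55 in the Cd8 subset and 1.85 in the Cd4 subset. In spleen B cells it was at 424 and 657 CPM (ratio 1.55, interval 1.51 to 1.58), and the share of B cells without a UMI was 13.2% and 6.1%. Ms4a6d, from 32 and 47 UMIs, was the 1 of 7 members with enough UMIs in spleen B cells that was at least 2-fold higher, and 0 were at least 2-fold lower, against 4.18% and 10.5% of all 12744 genes. In BM lymphocytes the intervals of the Ms4a4c ratio all held 1. T cells were at 194 and 196 CPM (ratio 1.01, interval 0.854 to 1.19), B cells at 99.1 and 77.8 CPM (ratio 0.786, interval 0.604 to 1.01) and NK cells at 189 and 162 CPM (ratio 0.859, interval 0.630 to 1.16). Spleen plasma cells were at 261 CPM in both libraries.

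**Figure D4:**
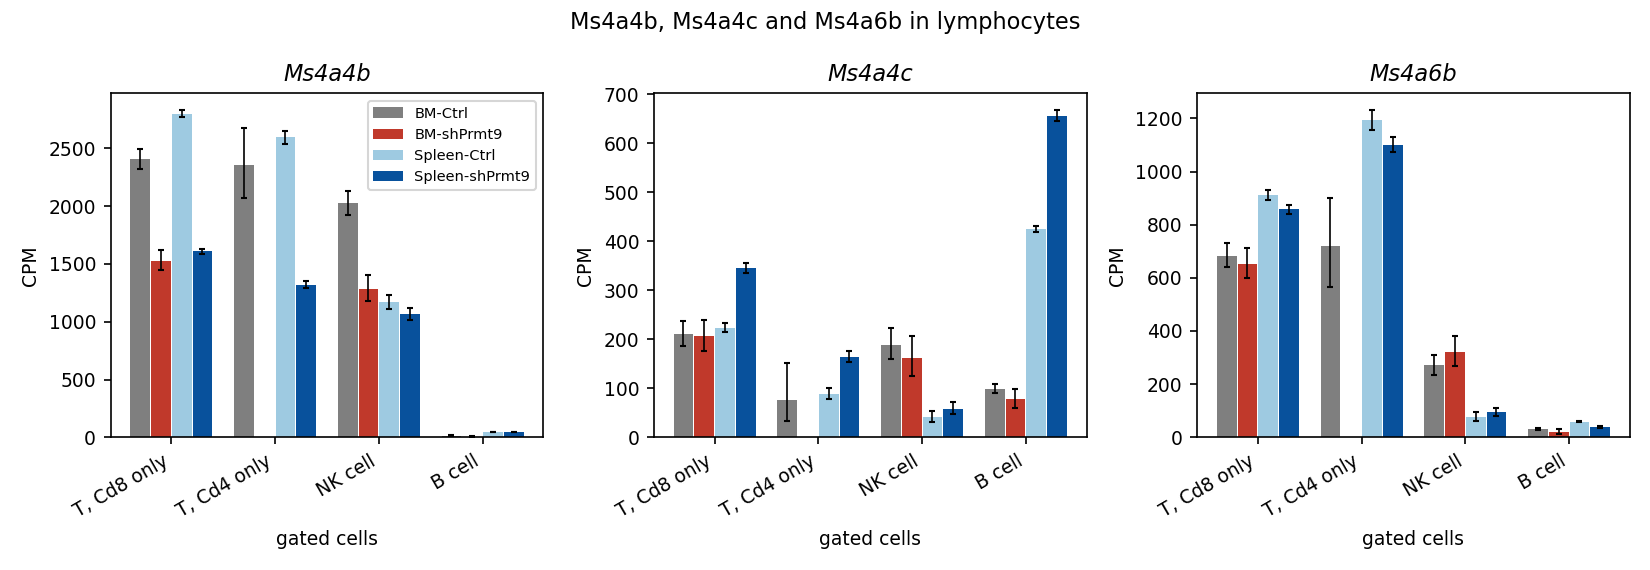
Levels of Ms4a4b, Ms4a4c and Ms4a6b (CPM) in T cells with Cd8 only, T cells with Cd4 only, NK cells and B cells, by library, with 95% counting intervals. Bars are left out where a gate held fewer than 20 cells. Ms4a4b is lower in shPrmt9 T cells of both tissues, Ms4a4c is higher in shPrmt9 T and B cells of the spleen, and Ms4a6b differs little.

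Ms4a4c was also higher in BM monocytes, macrophages and progenitor-gated cells of the knockdown library, but not in every myeloid gate. BM monocytes were at 228 CPM in BM-Ctrl (535 cells) and 460 CPM in BM-shPrmt9 (249 cells), a ratio of 2.02 (interval 1.90 to 2.14), where 6.29% of all 11011 genes were at least 2-fold higher and 6.54% at least 2-fold lower. The median cell was at 152 and 373 CPM. BM macrophages were at 144 CPM (46 UMIs, 31 cells) and 423 CPM (495 UMIs, 92 cells), a ratio of 2.93 (interval 2.16 to 4.05). In that gate 6 of 7 members with enough UMIs were at least 2-fold higher and 0 lower, against 11.2% and 5.12% of all genes. Of the 6, Ms4a3 and Ms4a4b rest on 2 UMIs each in BM-Ctrl, with intervals that hold 1. The gate was led by Fn1 and C1qb in BM-Ctrl and by Gpnmb and Fabp5 in BM-shPrmt9. Side by side, spleen monocytes were at 235 CPM (32 UMIs) and 1226 CPM (261 UMIs) and spleen macrophages at 98.0 CPM (15 UMIs) and 754 CPM (421 UMIs). Progenitor-gated cells were at 5.34 and 19.9 CPM (ratio 3.72, interval 2.31 to 6.14). In neutrophils the ratios had intervals that held 1, at 1.54 (0.753 to 3.45) in immature and 0.680 (0.363 to 1.29) in mature neutrophils of the BM and 0.736 (0.364 to 1.69) in immature neutrophils of the spleen.

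Interferon-stimulated genes, which type I interferon induces in most cells, were higher in the same gates. Of a list of 10 such genes, including Isg15, Irf7 and Ifit1, 10 were at least 2-fold higher in BM monocytes, 8 in spleen T cells, 8 in spleen B cells and 9 in BM macrophages. The shares of all genes at least 2-fold higher in these gates were 6.29%, 4.49%, 4.18% and 11.2%. Their summed level was 664 and 2630 CPM in BM monocytes, 2086 and 5818 CPM in spleen T cells, and 1182 and 3067 CPM in spleen B cells. It was also higher where Ms4a4c was not, with 613 and 2567 CPM in BM T cells and 371 and 1449 CPM in BM B cells. In Hoxa-gated cells it was 219 and 719 CPM in the BM and 801 and 4059 CPM in the spleen. The part of these genes in the Ms4a4c ratios was not tested.

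Ms4a6b differed little in the cells where it was highest. T cells were at 662 and 595 CPM in the BM (ratio 0.899, interval 0.819 to 0.986) and at 1021 and 961 CPM in the spleen (ratio 0.941, interval 0.923 to 0.960). With TMM scaling the spleen ratio was 0.997, so no direction is read from it. BM monocytes were at 161 and 187 CPM (ratio 1.16, interval 1.07 to 1.26) and NK cells of the spleen at 77.6 and 93.7 CPM (ratio 1.21, interval 0.932 to 1.57). It was lower in spleen B cells, at 58.5 and 38.1 CPM (ratio 0.651, interval 0.599 to 0.707), and higher in BM macrophages, at 69.1 and 149 CPM (ratio 2.15, interval 1.38 to 3.52), from 22 and 174 UMIs.

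Ms4a6c and Ms4a6d, both myeloid, differed in BM monocytes. Ms4a6c was at 887 CPM in BM-Ctrl (8026 UMIs) and 724 CPM in BM-shPrmt9 (3688 UMIs), a ratio of 0.816 (interval 0.785 to 0.849), and the median cell was at 801 and 670 CPM. Ms4a6d was at 141 and 222 CPM (ratio 1.58, interval 1.45 to 1.71), with medians of 86.9 and 194 CPM. The ratio of Ms4a6c was thus below 1 and that of Ms4a6d above 1 in the same cells. In BM macrophages the ratios were 1.26 (interval 1.05 to 1.52) for Ms4a6c, at 459 and 579 CPM but 0.931 under a stricter gate, and 2.11 (interval 1.56 to 2.9) for Ms4a6d, at 154 and 325 CPM. Spleen monocytes were at 821 CPM (112 UMIs) and 1062 CPM (226 UMIs) for Ms4a6c and at 154 CPM (21 UMIs) and 813 CPM (173 UMIs) for Ms4a6d. The leading genes of the Spleen-shPrmt9 monocyte and macrophage gates included Hmox1, the haem oxygenase gene, and none of the gates' own markers, and these gates are set side by side only.

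Beyond monocytes, Ms4a6c was at 115 and 180 CPM in basophils (ratio 1.57, interval 1.26 to 1.98) and at 140 and 151 CPM in progenitor-gated cells (ratio 1.08, interval 0.954 to 1.21). In T cells Ms4a6d was at 16.2 and 23.3 CPM in the spleen (ratio 1.44, interval 1.24 to 1.66). The Cd8 subset was higher, at 17.2 and 33.1 CPM (ratio 1.92, interval 1.61 to 2.30), while the Cd4 subset was at 16.2 and 11 CPM (ratio 0.679, interval 0.459 to 1.01). The difference between the subsets was not tested. In BM T cells it was at 31.5 and 21.9 CPM (ratio 0.696, interval 0.423 to 1.12).

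Ms4a7, a macrophage gene and the scarcest member, was highest in macrophages in each of the 4 libraries. BM macrophages were at 31.4 CPM in BM-Ctrl (10 UMIs) and 157 CPM in BM-shPrmt9 (184 UMIs), a ratio of 5.01 (interval 2.66 to 10.6). BM monocytes were at 3.09 CPM (28 UMIs) and 26.7 CPM (136 UMIs), a ratio of 8.63 (interval 5.71 to 13.5). In BM monocytes all 8 members had at least 20 UMIs over both libraries, and 4 of them, Ms4a1, Ms4a3, Ms4a4c and Ms4a7, were at least 2-fold higher, with 0 at least 2-fold lower, against 6.29% and 6.54% of all genes. The Ms4a1 count there rests on 5 and 20 UMIs. Spleen macrophages were at 32.7 CPM (5 UMIs) and 41.2 CPM (23 UMIs). The monocyte gate of BM-shPrmt9 carried Xist and that of BM-Ctrl hardly any, as given above.

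**Figure D5:**
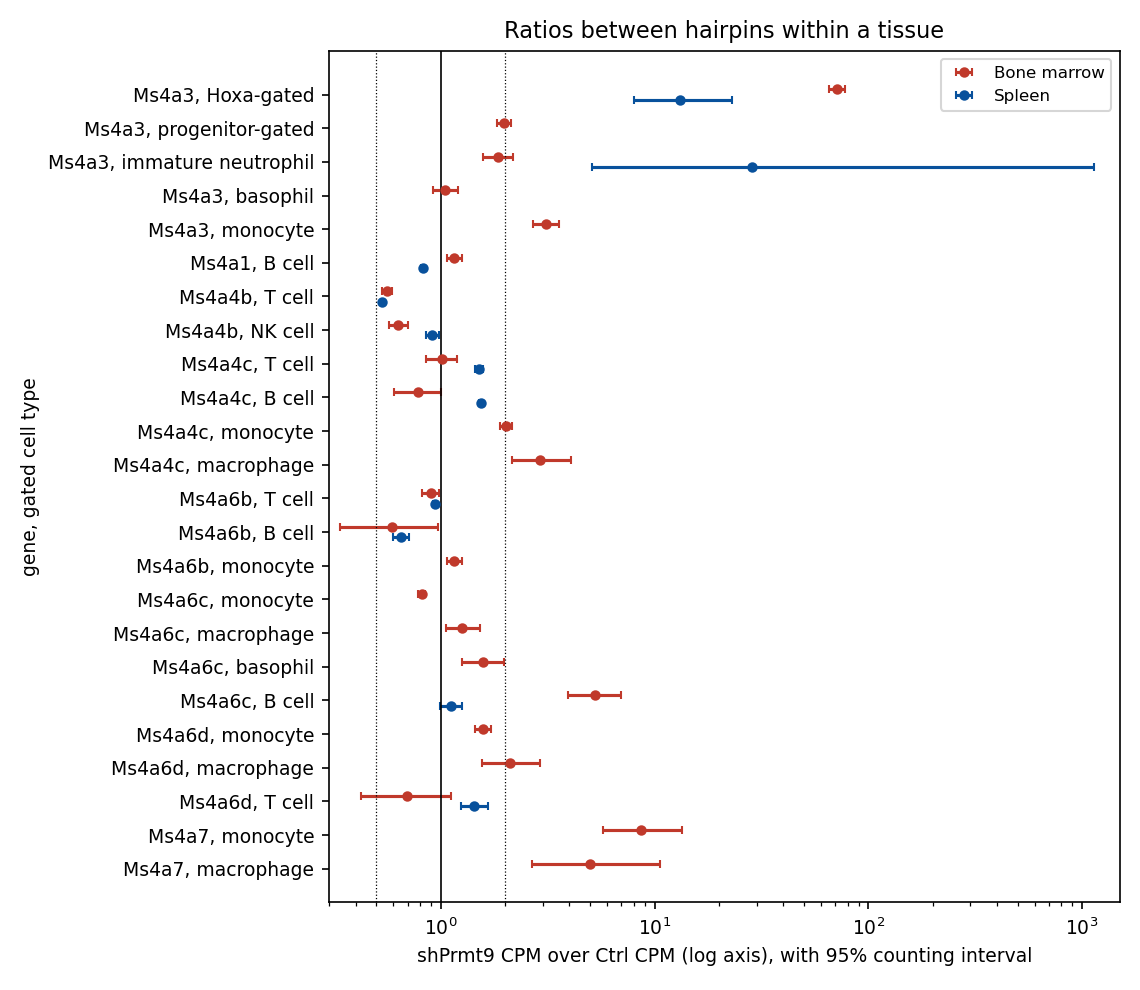
Ratio of the shPrmt9 to the Ctrl level of each member in selected gated cell types, on a log axis with 95% counting intervals, within BM and within spleen, with dotted lines at 2-fold in either direction. Ms4a3 in Hoxa-gated cells lies far to the right of 1 (71.4 in BM, 13.1 in spleen), and Ms4a4b in T cells lies to the left of 1 in both tissues (0.562 and 0.532).

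The tissues differed as well, within the same hairpin. The labels do not say whether the BM and spleen libraries of an arm came from the same animal. The study describes a representative mouse per group, but Ddx3y was at 0 UMIs in T cells of both BM libraries. In spleen T cells it was at 87.9 and 93.2 CPM. Xist was at 294 and 592 CPM in BM T cells and held 1 and 3 UMIs in those of the spleen. BM and spleen T cells of each arm thus differed in both sex-linked transcripts, and tissue, sex and animal cannot be told apart. Ms4a4c in B cells was 4.28 times as high in Spleen-Ctrl as in BM-Ctrl (interval 3.93 to 4.68) and 8.44 times as high in Spleen-shPrmt9 as in BM-shPrmt9 (interval 6.68 to 10.8). In NK cells it was the reverse, with ratios of spleen to BM of 0.220 and 0.359. Ms4a6b showed the same split between lymphocyte types, at 1.54 and 1.61 in T cells and 0.286 and 0.291 in NK cells. For Ms4a4b the ratio was 1.18 and 1.11 in T cells and 0.577 and 0.831 in NK cells. Ms4a1 in B cells was at 1.32 in Ctrl and 0.945 in shPrmt9. Ms4a3 in Hoxa-gated cells was at 1.98 in Ctrl (interval 1.12 to 3.25, from 16 UMIs in Spleen-Ctrl) and 0.364 in shPrmt9 (interval 0.330 to 0.399).

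Of the other Ms4a family genes, Ms4a2 was found where the IgE receptor is known, with 1343 and 876 CPM in BM basophils. Ms4a4a, a macrophage gene, was at 22.5 and 19 CPM in BM monocytes and at 26.1 and 94.9 CPM in spleen macrophages. Of 13 family genes outside the 8, including the related Tmem176a and Tmem176b, 3 had enough UMIs in the BM Hoxa-gated cells, and all 3 were at least 2-fold higher in BM-shPrmt9, against 12.2% of all genes. They were Ms4a2, at 0.181 and 1.24 CPM, and Tmem176a and Tmem176b, with ratios of 2.11 and 2.35. The direction was not the same in other gates. In BM immature neutrophils 2 of 3 were at least 2-fold higher, against 4.07% of all genes. At least 2-fold lower were 3 of 3 in BM macrophages and 3 of 4 in spleen B cells, against 5.12% and 10.5% of all genes. Nothing is read from these counts. Ms4a5, Ms4a10, Ms4a12, Ms4a13 and Ms4a18 had no UMI in any library.

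Over 37 combinations of gated cell type and library, covering 14 cell types, the genes whose log2 level ran most nearly alongside each member were listed out of 14363. These points share libraries and depth, so the correlations are a description. For Ms4a1 they were Fcmr and Cd79a (Pearson r 0.984 and 0.978), for Ms4a4b Trbc1, Gm2682 and Cd247 (0.933, 0.925 and 0.924) and for Ms4a7 Slamf8, Ctsk and Nos2 (0.936, 0.931 and 0.913). Ms4a3 ran with Gm16104, Gm1604a and Lbp (0.885, 0.879 and 0.879), and Ms4a6d with Mcub, Cxcl16 and Msr1 (0.906, 0.872 and 0.849). Ms4a4c ran with Phf11a, Ifi209 and Rcbtb1 (0.888, 0.883 and 0.879), Ms4a6b with Rcbtb1, Pea15a and AW112010 (0.863, 0.842 and 0.836) and Ms4a6c with Lpar6, Rasa4 and Epb41l1 (0.881, 0.881 and 0.858).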

How the data were processed

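The libraries were made with the 10x Genomics 3′ kit and read on an Illumina sequencer. The deposited matrices hold UMI counts per gene and barcode, and the authors made them with Cell Ranger against mm10. The submitters' notes name version 6.1.1 and the file headers 6.0.2. The counts were used as deposited.

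Cells with fewer than 200 genes or over 20% mitochondrial UMIs were dropped. The highest Scrublet scores, 0.8% of barcodes per 1000 cells loaded, were left out as doublets. Each cell was assigned from its own markers (mean z score of log2(1 + counts per 10000) at least 0.5, a margin of 0.25 to the next lineage, at least 2 markers detected). The Hoxa markers and the progenitor markers Elane, Prtn3, Mpo and Ctsg were scored as a single lineage. Its cells with at least 3 of 6 Hoxa, Meis1 and Pbx3 markers and a summed level of at least 100 CPM were Hoxa-gated. Its other cells were progenitor-gated. No Ms4a gene served as a marker. Other gates take the name of the markers. The conventional dendritic cell gate was not compared, and the BM plasma cell gate, led by Vpreb1 and Igll1, was not used. The gating rule was set after the data were seen, and the members and lists were chosen with earlier results of these data known.

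UMIs were summed per gene, gate and library. Levels have exact Poisson intervals, ratios exact conditional binomial intervals (gates of at least 20 cells, at least 20 UMIs over both libraries) and shares exact binomial (Clopper-Pearson) intervals. PCR reads were collapsed by UMI, and all intervals cover counting error only. For the named genes, all 8 members were taken, with the 3 genes of highest Pearson correlation for each (gates of at least 50 cells, genes of at least 100 UMIs), the other family genes and the 2 fixed lists. A further gene for Ms4a1 is not reported here. The alternatives were other scaling (TMM from edgeR 4.0.16, DESeq2 1.42.0 size factors), no doublet or cell filter, a stricter gate, the mean over cells, leaving out the highest cell, and subtracting the erythroid level. The comparison of Hoxa-gated cells without an Xist UMI was added after seeing the data. The calculations were tested on simulated data. Python 3.11.15, numpy 2.4.6, scipy 1.17.1, pandas 2.3.3, scanpy 1.11.5, matplotlib 3.10.9, Biopython 1.88 and R 4.3.3 were used.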

Additional observations from a re-analysis of the deposited data

Results flagged for a closer look

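Ratios between hairpins pointed in opposite directions in the 2 tissues, with neither interval holding 1, for 3 combinations of gene and gate. The plasma cell, conventional dendritic cell and erythroid gates were left out of this search. Pairs with an interval that held 1, such as Ms4a4c in B cells (0.786 and 1.55), were not counted. These differences were not tested. Ms4a1 in B cells had a ratio of 1.16 in the BM and 0.828 in the spleen. That contrast holds for summed UMIs and not for the median cell, which was lower with shPrmt9 in both tissues, at 428 and 238 CPM in the BM and 809 and 727 CPM in the spleen. Ms4a1 in immature neutrophils, a gate that should lack it, had ratios of 8.14 (3 and 62 UMIs) and 0.444 (11 and 45 UMIs). Ms4a4b in Hoxa-gated cells had ratios of 0.457 in the BM and 55.8 in the spleen (interval 9.83 to 2224, from 1 and 118 UMIs). In Spleen-shPrmt9, 3 cells held 50% of those UMIs and 70.1% of the cells had none, and the haemoglobin gene Hbb-bs was at 91.1 and 3916 CPM in the same Hoxa-gated cells. The part of other cells' transcripts in that ratio was not tested.

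The cells that no gate took made up 7.19% and 6.46% of the BM libraries and 4.68% and 19.8% of the spleen libraries. Members whose ratio between hairpins in them had an interval wholly above 2 are given first. Ms4a3 was at 132 CPM in BM-shPrmt9 against 6.93 CPM in BM-Ctrl, and at 4.80 CPM in Spleen-shPrmt9 against 0.470 CPM in Spleen-Ctrl. In the BM, Ms4a4c was at 51.2 against 7.91 CPM and Ms4a6b at 30.3 against 12.0 CPM. In the spleen, Ms4a6d was at 33.5 against 8.69 CPM. Other members were lower in the ungated cells of Spleen-shPrmt9. Ms4a4b was at 137 against 448 CPM (ratio 0.305), Ms4a1 at 175 against 256 CPM and Ms4a6b at 123 against 164 CPM. In the ungated BM cells 15% of all genes were at least 2-fold higher, and in those of the spleen 3.37%.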

How the results depend on the processing

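No paired analysis was possible because each group was 1 library and the labels give no replicate numbers, and for the same reason no library could be left out. Of 128 ratios between hairpins, all 128 stayed within their counting interval without the filter on cells. The Ms4a3 ratio in BM Hoxa-gated cells, 71.4, was 56.0 with doublets kept, 105 under the stricter gate, 44.4 as a mean over cells, 77.9 without the highest cell and 91.8 with the erythroid level subtracted. In the spleen it went from 13.1 to 7.89 as a mean over cells and to 38.0 without the highest cell. Ms4a4c in BM monocytes, 2.02, was 2.14 with DESeq2 factors, 2.16 with doublets kept and 1.77 as a mean over cells. Ms4a6c there, 0.816, was 0.863 with TMM and 0.867 with DESeq2 factors. Ms4a1 in spleen B cells, 0.828, was 0.928, 0.935, 0.910 and 0.873 with TMM, DESeq2, the mean over cells and subtraction, and Ms4a4c there, 1.55, was 1.73, 1.75, 1.83 and 1.62. In spleen T cells, with TMM, DESeq2, doublets kept and the mean over cells, Ms4a4b went from 0.532 to 0.563, 0.565, 0.548 and 0.514 and Ms4a6b from 0.941 to 0.997, 1.0, 0.968 and 0.904, so the small Ms4a6b difference depends on the scaling. With no filter on low counts the share of genes at least 2-fold higher became 20.6% in BM Hoxa-gated cells, 14.5% in BM monocytes, 10.7% in spleen B cells and 13.9% in spleen T cells, and at least 2-fold lower 12.3% in BM Hoxa-gated and 16.4% in spleen T cells. Unthinned, the shares of BM Hoxa-gated cells with an Ms4a3 UMI were 9.57% and 95.6%.

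Ratios that changed direction were all in gates where the gene was scarce or few cells were present. Ms4a1 in BM immature neutrophils went from 8.14 to 0.549 with doublets kept. Ms4a6c in BM macrophages went from 1.26 to 0.931 under the stricter gate. Ms4a4b in spleen plasma cells went from 0.696 to 1.86 as a mean over cells and 6.6 with subtraction. Without the highest cell, Ms4a4b went from 0.214 to 3.12 in BM erythroid cells and from 0.397 to 1.54 in basophils. Ms4a6b in spleen erythroid cells went from 0.637 to 1.43 with TMM, 1.48 with DESeq2, 1.17 with doublets kept and 1.91 as a mean over cells. The causes were not tested. Depth limits the spleen Hoxa-gated cells and all monocyte and macrophage gates of the spleen, where members had as few as 0 UMIs in Spleen-Ctrl. Ms4a6c had 112 UMIs in the monocytes of that library.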

Other observations

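A few cells of a gate carried most of some members' UMIs. In Spleen-shPrmt9 plasma cells Ms4a6d was at 44.0 CPM (273 UMIs) against 1.75 CPM (4 UMIs) in Spleen-Ctrl, but 5 cells held 50% of the UMIs and 92.2% of the 244 cells had none. In BM B cells Ms4a6c was at 19.6 and 103 CPM (106 and 94 UMIs), a ratio of 5.25 (interval 3.93 to 7.00), and 6 of 90 BM-shPrmt9 B cells held 50% of the UMIs while 76.7% had none. Ms4a6b in spleen plasma cells was at 34.0 and 64.1 CPM (ratio 1.88, interval 1.47 to 2.43), and 55.7% of the Spleen-shPrmt9 cells had none.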
